A study of Mus musculus with 59 samples.

Results

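A set of 8 genes that switch off growth factor signalling through the extracellular signal-regulated kinases (ERK) was followed in mouse prefrontal cortex: the phosphatase genes Dusp1, Dusp4, Dusp5 and Dusp6, the Sprouty genes Spry2 and Spry4, and the Sprouty-related genes Spred1 and Spred2. They were chosen by name as ERK feedback inhibitors, all 8 were found among the 18088 genes of the expression table, and all 8 passed the filter on low values. The 59 RNA-seq libraries came from C57BL/6J mice labelled heterozygous (HT, 29 libraries) or wild type (WT, 30 libraries) for the gene Naa15, whose product anchors the N-terminal acetyltransferase NatA to the ribosome. Pups received fluoxetine (20 libraries), a serotonin reuptake inhibitor, lithium (20), a mood stabiliser, or vehicle (19) through the mother's milk from postnatal day 3 to day 24, and tissue was taken on day 25. Genotype, treatment and sex gave 12 groups of 5 libraries each, except HT vehicle males with 4. The labels give neither the doses, the Naa15 allele, the composition of the vehicle nor the litters, and do not say whether each library is a separate mouse, so p-values measure the spread between these samples.

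ERK is activated when a growth factor receptor or neuronal calcium influx loads Ras and drives the Raf, MEK and ERK kinases in turn. Active ERK enters the nucleus and, through factors that bind the serum response element and the cAMP response element, induces its own brakes. Dusp proteins remove the activating phosphates from ERK, whereas Sprouty and Spred proteins act upstream at the receptor, Ras and Raf. In cortex several of these transcripts rise with neuronal activity, together with immediate early genes such as Arc, Egr1 and Nr4a1.

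RefSeq promoters on the GRCm38.p6 build were found for 6 of the 8 genes, all but Dusp4 and Spry4. The 250 bases before the start of 3 phosphatase genes that fell together under lithium are shown because they differ in the response elements just named. Capitals mark TGACGT, the core of the cAMP response element, read on either strand, and the CArG box, the core of the serum response element. Positions are counted so that -1 is the base before the start.
Dusp1 (chr17:26508473-26508722, minus strand): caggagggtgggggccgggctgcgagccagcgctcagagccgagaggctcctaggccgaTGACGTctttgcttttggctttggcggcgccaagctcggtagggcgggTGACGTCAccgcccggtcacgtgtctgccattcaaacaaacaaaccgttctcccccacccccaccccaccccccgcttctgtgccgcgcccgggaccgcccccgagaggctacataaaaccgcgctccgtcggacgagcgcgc
Dusp5 (chr19:53528895-53529144, plus strand): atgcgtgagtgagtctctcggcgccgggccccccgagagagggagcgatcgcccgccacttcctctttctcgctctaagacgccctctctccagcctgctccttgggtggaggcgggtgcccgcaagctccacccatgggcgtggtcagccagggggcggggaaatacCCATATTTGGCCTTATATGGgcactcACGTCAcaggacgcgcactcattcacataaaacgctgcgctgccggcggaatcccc
Dusp6 (chr10:99262981-99263230, plus strand): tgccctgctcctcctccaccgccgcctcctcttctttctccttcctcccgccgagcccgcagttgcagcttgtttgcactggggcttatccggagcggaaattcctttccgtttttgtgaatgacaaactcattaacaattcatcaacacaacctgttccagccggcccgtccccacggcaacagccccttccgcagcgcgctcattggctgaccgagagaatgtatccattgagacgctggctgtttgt
The Dusp1 promoter held the full palindrome TGACGTCA with its first base at -143 and a further TGACGT at -191. The Dusp5 promoter held 2 adjoining CArG boxes, with first bases at -82 and -72, and TGACGT on the opposite strand at -56. Spred2 held TGACGT on the opposite strand at -52. The promoters of Dusp6, Spry2 and Spred1 held none of the 7 motifs searched on both strands in the 300 bases that end 50 past the start. These were TGACGT and its palindrome TGACGTCA, the AP-1 element TGANTCA, the CArG box, the Egr element GCGNGGGCG, the Ets element CCGGAAGT and the E-box TCACGTGA. Every TGACGTCA also counts as TGACGT. Of all 32851 promoters of that length, 1.79% held TGACGTCA, 7.51% held TGACGT, 7.81% the AP-1 element, 1.63% the CArG box, 5.55% GCGNGGGCG, 3.89% CCGGAAGT and 0.974% TCACGTGA. Among the 16169 promoters of genes tested here the shares were 2.76, 10.3, 5.23, 1.37, 9.77, 6.66 and 1.58% in the same order. A match describes letters in this window and no site of binding.

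Values are the authors' normalised read counts, which are reads divided by a size factor for each library. Recovered read totals ran from 24992127 to 32870490 per library with a median of 29106506. Naa15 itself lay between 1476 and 1971 in the 10 WT vehicle libraries and between 1510 and 1710 in the 9 HT vehicle libraries, so its gene-level count did not separate the genotypes and, with the allele not given, does not check the labels. Xist and Ddx3y matched the labelled sex in 59 libraries. Together, the 20 libraries of lithium-exposed mice and the 5 of HT fluoxetine females stood apart from the other 34 on the first principal component (14.4% of the variance). In these 25 the share of mitochondrial transcripts was 6.76 to 10.3%, against 4.96 to 7.83% in the others, and the slope of log2 value on GC content ran from -0.248 to -0.0371 per 10 GC points, against -0.0783 to 0.189. Because every lithium library belongs to this set, lithium and whatever sets these libraries apart cannot be told apart. The main comparisons of the 8 genes that use the HT fluoxetine females are given with and without them. Without them, HT against WT under fluoxetine, fluoxetine in HT mice and the interaction of genotype and fluoxetine compared males only. The interaction of sex and fluoxetine then used WT mice only. Fluoxetine over both genotypes then also left out HT vehicle females, and HT against WT over all treatments WT fluoxetine females. Lithium against fluoxetine likewise left out HT lithium females, and female against male left out HT fluoxetine males. Markers of excitatory neurons were high in every library, with a summed count of 144455 to 206611 under vehicle, and in bulk tissue fewer cells of a type and less RNA per cell cannot be told apart.

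Per kilobase of the longest annotated transcript, Spred1 was the most abundant member (874 ± 102 normalised reads per kb, mean ± SD over 59 libraries). It was followed by Dusp6 (755 ± 168) and Spred2 (723 ± 113), and these neighbours differed by less than their spread. Spry2 (484 ± 62.1) and Dusp1 (290.1 ± 98.6) lay at separate intermediate levels. Dusp5 (97.4 ± 33.1), Spry4 (79.2 ± 18.5) and Dusp4 (72.0 ± 16.0) were the scarcest, and neighbours among them again differed by less than the spread. Dusp1 and Dusp5 varied most for their level. The annotated loci of Dusp1 (GRCm38 chromosome 17, 26505590 to 26562128) and Dusp5 (chromosome 19, 53529109 to 53542431) overlap Ergic1 and AC137853.2, and whether counting used the strand is not given in the sources used here, so reads in the overlaps could belong to either gene.

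**Figure D1:**
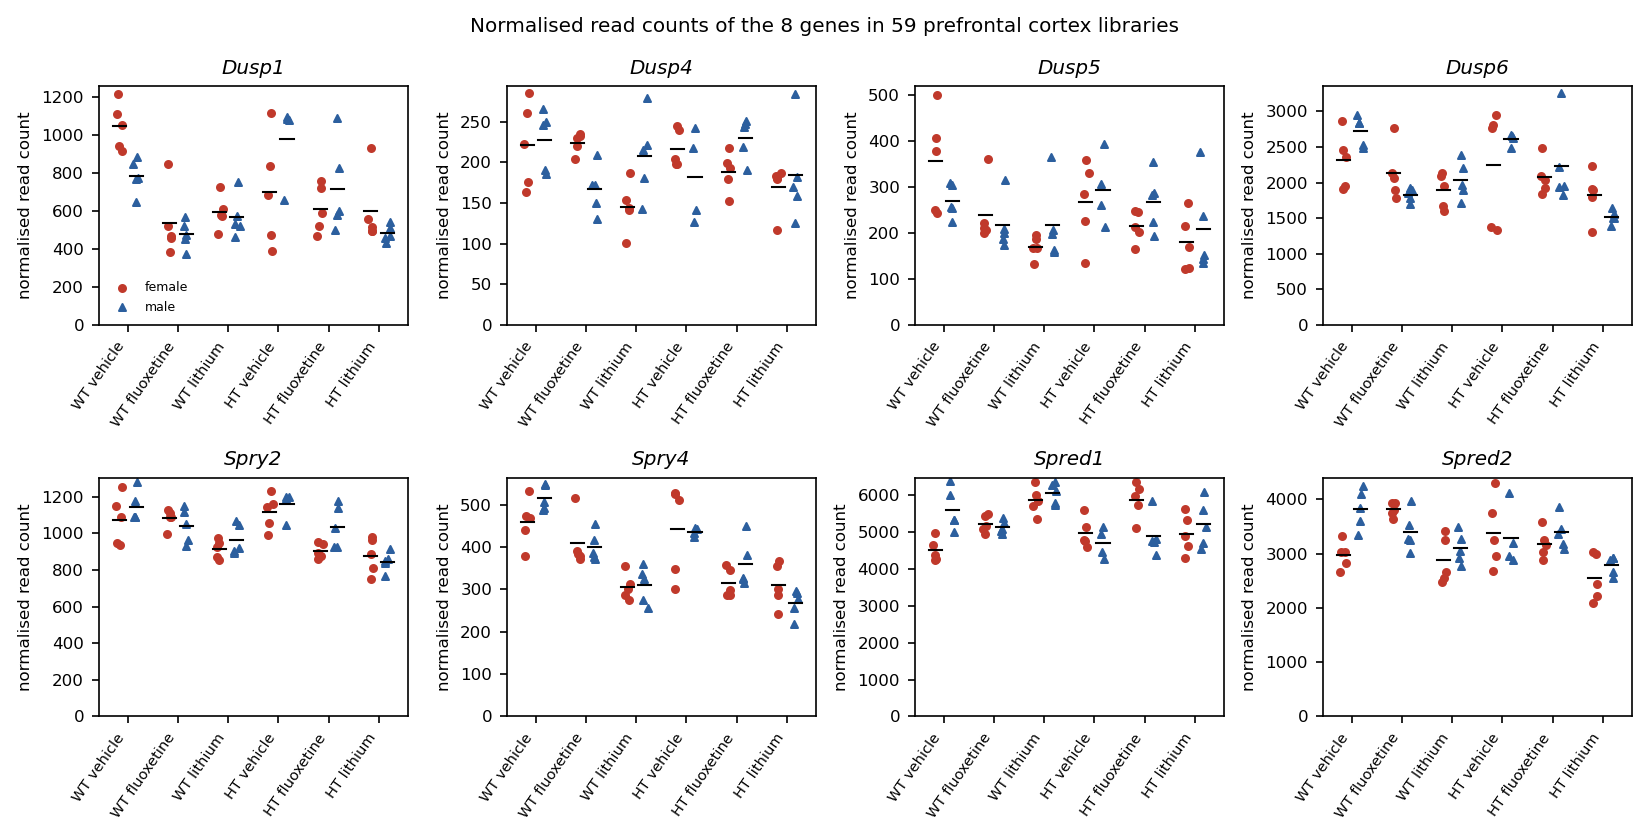
Normalised read counts (y axis, from 0) of each gene by genotype and treatment (x axis), with 1 point per library, circles for females, triangles for males and a black bar at each group mean. Dusp1, Dusp5, Dusp6, Spry2 and Spry4 lie lower in lithium than in vehicle libraries of both genotypes, and in WT mice Dusp1 lies about as low under fluoxetine, with medians of 472 under fluoxetine and 576 under lithium.

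Under lithium, 7 of the 8 feedback genes fell and Spred1 rose, against vehicle and over both genotypes. In the same comparison 63.1% of the 17891 genes tested passed an adjusted p of 0.05 (limma-trend on log2 of value + 1, Benjamini-Hochberg over all genes tested). A call by itself is therefore not particular to these genes. Of all genes tested 30.4% fell, and whether the 7 of 8 that fell exceed this share was not tested. Within WT mice 8 of the 8 passed beside 52.9% of all genes, and within HT mice 6 beside 50.6%. The 8 genes had a median log2 change of -0.38, beside 0.022 over all genes tested. Spry4, Dusp5 and Dusp1 fell most, and for each of them at most 1.26% of all genes tested had a lower log2 change.

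Dusp1 encodes a nuclear phosphatase of ERK, JNK and p38 that is induced within minutes as an immediate early gene and also responds to glucocorticoids. In WT mice its counts ran from 649.6 to 1218 with a median of 900.4 under vehicle and from 465 to 752 with a median of 576 under lithium, and 8 of 10 lithium libraries were below the lowest vehicle library. In HT mice they ran from 389 to 1115 with a median of 841 under vehicle and from 435 to 935 with a median of 504 under lithium, and the ranges overlapped, although 9 of 10 lithium libraries were below the HT vehicle median. The log2 change over both genotypes was -0.62 ± 0.10 (SE, adjusted p = 1.04e-06), or 0.653 times the vehicle level on the value + 1 scale, and 19 of 20 lithium libraries were below the mean of their vehicle group.

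Dusp5, a nuclear phosphatase specific for ERK, ran from 223 to 500.5 with a median of 279.8 in WT vehicle libraries and from 133 to 365 with a median of 177 in WT lithium libraries, where 9 of 10 were below the lowest vehicle value. In HT mice it ran from 134 to 394 with a median of 285 under vehicle and from 122 to 375 with a median of 161 under lithium, with overlapping ranges. Its log2 change was -0.63 ± 0.13 (SE, adjusted p = 2.46e-05). Dusp4, a nuclear phosphatase of ERK and JNK, changed less, by -0.28 ± 0.09 (SE, adjusted p = 0.00674), with a median of 179.6 over the 20 lithium libraries against 217 over the 19 vehicle libraries. In WT mice Dusp4 had -0.38, adjusted p = 0.00997, and in HT mice -0.18, adjusted p = 0.262. The interaction of genotype and lithium was 0.20 ± 0.18 (SE, adjusted p = 0.861), so no difference between the genotypes was shown.

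Dusp6 encodes the cytoplasmic phosphatase that binds ERK specifically and holds its basal activity down. Its counts ran from 1328 to 2947 with a median of 2629 over the 19 vehicle libraries and from 1299 to 2388 with a median of 1847 over the 20 lithium libraries. All 20 lithium libraries lay below the vehicle median, although 5 of the 19 vehicle libraries lay within the lithium range, namely 2 HT vehicle females at 1328 and 1376 and 3 WT vehicle females at 1915, 1956 and 2364. The log2 change was -0.43 ± 0.08 (SE, adjusted p = 5.21e-06), which was -0.36 in WT and -0.51 in HT mice.

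Lithium and vehicle ranges did not overlap for 1 of the 8 genes within each genotype, Spry4 in WT and Spry2 in HT mice. The same held for 12.1% of all genes tested in WT and 13.3% in HT mice, so these counts were near the background. Spry4, an inhibitor of receptor-driven Ras and Raf activation, ran from 379 to 548 with a median of 490.1 in WT vehicle libraries and from 255 to 361 with a median of 306 in WT lithium libraries. In HT mice it ran from 301 to 527 with a median of 443 and from 218 to 367 with a median of 289, and 7 of 10 lithium libraries were below the lowest vehicle library. Its log2 change was -0.63 ± 0.062 (SE, adjusted p = 6.32e-13), the smallest adjusted p among the 8 genes, with 20 of 20 lithium libraries below the mean of their vehicle group. Spry2, which acts at the same step, ran from 991 to 1232 with a median of 1160.1 in HT vehicle and from 749 to 978 with a median of 853 in HT lithium libraries. In WT mice the ranges overlapped, at 937 to 1278 and 852 to 1067, and the log2 change over both genotypes was -0.32 ± 0.038 (SE, adjusted p = 2.8e-10).

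The 2 Spred genes, whose products hold neurofibromin at the membrane and so keep Ras inactive, moved in opposite directions. Spred2 fell by 0.25 ± 0.052 on the log2 scale (SE, adjusted p = 5.04e-05), with medians of 3249 under vehicle and 2906 under lithium. Spred1 rose by 0.16 ± 0.037 (SE, adjusted p = 0.000265). The Spred1 rise passed the test in WT mice (0.25, adjusted p = 6.42e-05), whose 10 lithium libraries all lay above the vehicle median of 4999, and not in HT mice (0.066, adjusted p = 0.316), where it did pass with quantile normalisation (0.15, adjusted p = 0.0163). Nevertheless the interaction of genotype and lithium passed for 0 of the 8 genes, as for 0% of all genes by limma, with 2 of the 8 at an unadjusted p under 0.05 and 0 by edgeR or DESeq2.

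Other signals also differed between lithium and vehicle libraries. Markers of endothelial cells fell for 8 of 10 genes (summed count 7441 to 10605 under vehicle and 6318 to 9994 under lithium), those of mural cells for 7 of 9 (6343 to 11659 and 6149.7 to 10863) and those of excitatory neurons for 8 of 12 (144455 to 206611 and 128219.6 to 168003). Astrocyte markers fell for 6 of 10 (138335 to 187679.8 and 129232 to 173077) and those of oligodendrocyte precursors for 4 of 8 (8516 to 14470.5 and 6570.3 to 10669). In the other 7 marker lists 0 to 4 genes fell, and 30.4% of all genes tested fell. The part of these marker changes in the falls of the 8 genes was not tested. When the trend of each library on GC content and on the total annotated exon length of a gene was removed, 47.5% of genes and 6 of the 8 members were called. Dusp1 (-0.52), Dusp5 (-0.49), Dusp6 (-0.49), Spry2 (-0.51), Spry4 (-0.56) and Spred2 (-0.18) still fell, whereas Dusp4 (-0.15, adjusted p = 0.19) and Spred1 (0.018, adjusted p = 0.708) no longer passed. With the GC slope of each library as a covariate, a fit added after the data were seen, 37.3% of genes and 1 of the 8 members were called. Spry4 kept its value and call (-0.62, adjusted p = 0.000104). Dusp5 (-0.59, adjusted p = 0.0679) and Dusp1 (-0.52, adjusted p = 0.0501) had values near those given above and missed the threshold, while Dusp6 (-0.22, adjusted p = 0.31), Spry2 (-0.088, adjusted p = 0.339) and Spred2 (-0.003, adjusted p = 0.986) were smaller. Spred1 then had -0.046, adjusted p = 0.647.

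**Figure D2:**
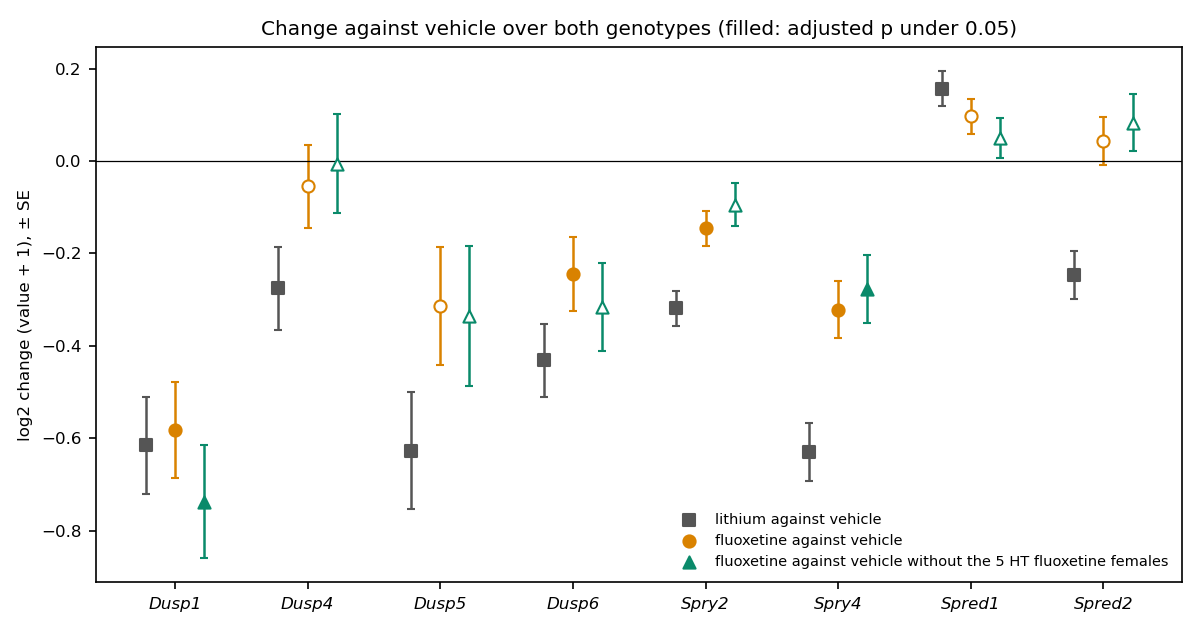
Log2 change against vehicle (y axis, ± SE) of each gene (x axis) for lithium (grey squares), fluoxetine (orange circles) and fluoxetine without the 5 HT fluoxetine female libraries (green triangles), with filled symbols where the adjusted p was under 0.05. Lithium has 8 filled symbols, fluoxetine 4, and fluoxetine without those libraries 2, Dusp1 and Spry4.

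Fluoxetine lowered fewer of these genes, with Dusp1 standing first. Dusp1, Dusp6, Spry2 and Spry4 fell over both genotypes, 4 of 8, beside 20.0% of all genes tested and 10.3% that fell. Both drugs were compared with the same 19 vehicle libraries. Without the 5 HT fluoxetine females, 2 of the 8 genes and 2.08% of all genes were called.

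In WT mice Dusp1 ran from 372 to 850.0 with a median of 472 under fluoxetine, and 9 of 10 libraries lay below the lowest WT vehicle library, at 649.6. In WT females the 5 fluoxetine libraries gave 383, 458, 472, 523 and 850.0, and the 5 vehicle libraries gave 915, 945, 1055, 1115 and 1218. In WT males they gave 372, 454, 472, 524 and 568 under fluoxetine and 649.6, 770.0, 774, 847 and 885 under vehicle, and in neither sex did the groups overlap. Groups did not overlap for 2 of the 8 genes in females, Dusp1 and Spred2, beside 1.79% of all genes, and for 3 in males, Dusp1, Dusp6 and Spry4, beside 1.95%. Spred2 was higher under fluoxetine in WT females, at 3648 to 3939 against 2671 to 3335 under vehicle. In WT males its mean was lower, at 3406 under fluoxetine against 3825 under vehicle. The Dusp1 log2 change in WT mice was -0.87 ± 0.15 (SE, adjusted p = 0.000259), the only one of the 8 called there, beside 1.02% of all genes. When only the WT vehicle and fluoxetine groups were fitted, 3 were called, again beside 1.02% of all genes, with Dusp6 (-0.35, adjusted p = 0.0271) and Spry4 (-0.27, adjusted p = 0.0469) beside Dusp1. Dusp1 had -1.01, adjusted p = 0.023, in females (0.140% of all genes called) and -0.72, adjusted p = 0.158, in males (0.129%).

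In HT mice the Dusp1 difference did not pass. Their counts ran from 468 to 1094 with a median of 595 under fluoxetine, inside the HT vehicle range of 389 to 1115, and the log2 change was -0.30 ± 0.15 (SE, adjusted p = 0.131). Without the HT fluoxetine females, and so in males only, it was -0.48, adjusted p = 0.556. With those females kept, it passed without HT fluoxetine male 3, HT vehicle female 4 or HT vehicle male 2 (adjusted p from 0.0356 to 0.0499). The interaction of genotype and fluoxetine was 0.57 ± 0.21 (SE, adjusted p = 0.0441) for Dusp1, 1 of 8 genes called beside 20.6% of all genes. That call did not hold by edgeR (0.51, adjusted p = 0.0783) or DESeq2 (0.52, adjusted p = 0.0673), where the value was of similar size. It was also lost in 21 of the 59 fits that each left out 1 library, all of them fluoxetine or vehicle libraries (adjusted p from 0.0504 to 0.104). Without the HT fluoxetine females, and so in males only, the interaction was 0.24, adjusted p = 0.938, and 0% of all genes were called. Over both genotypes Dusp1 fell by 0.58 ± 0.10 (SE, adjusted p = 5.49e-05), and by 0.74 (adjusted p = 0.00015) without the HT fluoxetine females.

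Spry4 was the other gene called with and without those libraries. It ran from 371 to 516 with a median of 384 in WT and from 287 to 451 with a median of 325 in HT fluoxetine libraries, and 18 of 20 were below the mean of their vehicle group. Its log2 change was -0.32 ± 0.062 (SE, adjusted p = 0.000152) and -0.28, adjusted p = 0.0289, without the HT fluoxetine females. Dusp6 fell by 0.25 (adjusted p = 0.0222), with medians of 2629 under vehicle and 1931 under fluoxetine. Without those females the Dusp6 value was -0.32, adjusted p = 0.0671, a difference of similar size that missed the threshold. Spry2 had -0.15, adjusted p = 0.00463, with all libraries and -0.094, adjusted p = 0.406, without the HT fluoxetine females.

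The other 4 genes did not pass over both genotypes. Dusp5 had a log2 change of -0.31 ± 0.13 (SE, adjusted p = 0.0727), with 16 of 20 fluoxetine libraries below the mean of their vehicle group. It passed when only the groups of the comparison were fitted (adjusted p = 0.0437) and when 1 of 5 libraries was left out, namely HT vehicle female 4, HT vehicle male 1, WT vehicle female 4, WT fluoxetine female 5 or WT fluoxetine male 5 (adjusted p from 0.0242 to 0.0498). Spred1 had 0.10, adjusted p = 0.0594, and passed with quantile normalisation (0.11, adjusted p = 0.0273), median centring (0.11, adjusted p = 0.0423), only genes with a mean of at least 100 (adjusted p = 0.046), only the groups of the comparison (adjusted p = 0.0462) or the replicate block (adjusted p = 0.0406). It also passed when 1 of 9 libraries was left out, namely HT fluoxetine female 5, HT fluoxetine male 4, HT lithium male 5, HT vehicle female 1, HT vehicle males 1 or 2, WT vehicle female 3 or WT vehicle males 1 or 3 (adjusted p from 0.0279 to 0.049). The 95% interval was -0.24 to 0.13 for Dusp4, 0.022 to 0.17 for Spred1 and -0.061 to 0.15 for Spred2. In HT mice alone, Spry2 (-0.23, adjusted p = 0.000829) and Spry4 (-0.37, adjusted p = 0.00081) fell and Spred1 rose (0.15, adjusted p = 0.0314), beside 31.2% of all genes. Without the HT fluoxetine females, which left males only, 0 of the 8 and 0.145% of all genes were called, with Spry4 at -0.29, adjusted p = 0.538. The same contrast of HT males, fitted with all 59 libraries, had 0 of the 8 called by limma, beside 0.162% of all genes. Of the 8, 4 then had an unadjusted p under 0.05, a threshold for which the share of all genes is not given here.

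The HT fluoxetine females were set directly against the groups nearest to them, in comparisons chosen after these libraries were known to stand apart. Against HT lithium females 0 of the 8 genes were called, beside 0.0559% of all genes, and all 8 point estimates were higher, with a median of 0.18. Of the 8, 2 had an unadjusted p under 0.05, and the share of all genes at that threshold is not given here. Spry4 gave 287, 288, 298, 345 and 358 in the HT fluoxetine females and 241, 287, 301, 355 and 367 in the HT lithium females, with overlapping ranges. Against HT fluoxetine males, which received the same drug, Spred1 was higher (0.26, adjusted p = 0.00451) and Spry2 lower (-0.19, adjusted p = 0.0489), beside 31.8% of all genes.

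Lithium libraries lay below fluoxetine libraries for 6 of the 8 genes, beside 53.9% of all genes called and 26.2% lower. With the GC slope as covariate 1 of the 8 was called beside 30.5% of all genes, and Spry2 had a value of 0.0098. Spry4 (-0.31, adjusted p = 2.44e-05), Spred2 (-0.29, adjusted p = 3.56e-06), Spry2 (-0.17, adjusted p = 0.000109), Dusp5 (-0.31, adjusted p = 0.0305), Dusp4 (-0.22, adjusted p = 0.0315) and Dusp6 (-0.19, adjusted p = 0.0408) were lower under lithium. Dusp1 had a log2 difference of -0.033 with a 95% interval of -0.24 to 0.17, and its medians were 528 under lithium and 524 under fluoxetine. Without the HT fluoxetine females, Spred1 was also higher under lithium (0.16, adjusted p = 0.00094) and Dusp5 (-0.31, adjusted p = 0.0653) and Dusp6 (-0.18, adjusted p = 0.0875) were not called, beside 57.6% of all genes. Leaving out the third HT lithium female reduced the count from 6 to 3, and over the 59 such fits the calls of Dusp4, Dusp5 and Dusp6 were lost in 5, 8 and 12. In WT mice alone Spry4 (-0.39), Spred2 (-0.28) and Spry2 (-0.18) were lower and Spred1 (0.20) higher under lithium, beside 53.3% of all genes.

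The question of genotype alone was put to the vehicle libraries first. Under vehicle, HT differed from WT for 0 of the 8 by limma, with 0 at an unadjusted p under 0.05 and 0 by edgeR or DESeq2, beside 0.106% of all genes. The 95% intervals under vehicle ran from -0.53 to 0.20 for Dusp5 and from -0.072 to 0.15 for Spry2, which are the widest and among the narrowest of the 8. Dusp1 in HT vehicle females gave 389, 476, 687, 841 and 1115, spanning most of the range of the whole study, while WT vehicle females all lay at 915 or above. Vehicle males went the other way, with a mean of 982 in HT (661 to 1099) and 785 in WT mice (650 to 885).

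Over all treatments Spry4 was lower in HT mice (-0.18 ± 0.05 (SE, adjusted p = 0.0126)), 1 of 8 beside 14.7% of all genes. It was lower than the mean of the matching WT group in 23 of 29 HT libraries. Without the HT fluoxetine females the Spry4 value was -0.14, adjusted p = 0.176, while Spred1 then passed (-0.13, adjusted p = 0.0193), beside 2.96%. Leaving out any 1 of 9 libraries raised the count from 1 to 2 or 3 by adding Spred1, Spred2 or both: the HT fluoxetine male 1, HT lithium females 1 and 4, HT lithium male 5, HT vehicle females 1 and 2, HT vehicle male 2, WT lithium female 5 and WT vehicle male 2. Under fluoxetine HT mice had more Dusp1 (0.38, adjusted p = 0.0368) and less Spry4 (-0.27, adjusted p = 0.013) and Spry2 (-0.13, adjusted p = 0.0488), beside 33.3% of all genes. Leaving out HT fluoxetine female 4, WT fluoxetine females 1 or 4, or WT fluoxetine males 1 or 4 reduced the count from 3 to 1, and the Spry2 call was lost in 31 of 59 such fits. None of the 3 was called without the HT fluoxetine females, where only males were compared, with log2 differences of 0.54, -0.17 and -0.0082, beside 1.40%. With the GC slope as covariate 0 of the 8 were called beside 18.4% of all genes, and Spry2 had a value of 0.016.

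Under lithium Spred1 was lower in HT than in WT mice (-0.24 ± 0.052 (SE, adjusted p = 0.0184)), 1 of 8 beside 0.386% of all genes. Its counts ran from 4301 to 6088 with a median of 5015 in HT and from 5358 to 6371 with a median of 5924 in WT lithium libraries, so the HT range was wider and reached lower. The value was similar but missed the threshold without the third HT lithium female (-0.21, adjusted p = 0.0596), with quantile normalisation (-0.21, adjusted p = 0.0531) and when the lithium groups were fitted by themselves (-0.24, adjusted p = 0.12).

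Sex was compared over all groups. Between females and males 0 of the 8 were called by limma, with 0 at an unadjusted p under 0.05 and 0 by edgeR or DESeq2, beside 8.76% of all genes. The interaction of sex and lithium passed for 0 of the 8, with 2 at an unadjusted p under 0.05 and 0 by edgeR or DESeq2, beside 0.0112% of all genes. The interaction of sex and fluoxetine passed for Spred1 (0.26 ± 0.075 (SE, adjusted p = 0.0451)), 1 of 8 beside 2.76%. Spred1 was 4504 ± 316 in WT vehicle females, 5223 ± 231 in WT fluoxetine females, 5604 ± 561 in WT vehicle males and 5134 ± 175 in WT fluoxetine males (mean ± SD, n = 5 each). That call was lost by edgeR (0.25, adjusted p = 0.0575). It was also lost in 26 of the 59 fits that each left out 1 library, all of them fluoxetine or vehicle libraries (adjusted p from 0.0511 to 0.0894). Without the HT fluoxetine females, and so in WT mice only, the value was 0.34, adjusted p = 0.753, with 0% of all genes called.

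Within the groups several of these genes varied together from library to library. Deviations from the 12 group means were correlated over the 59 libraries for all 28 pairs, and 25 of 28 were positive, with 13 passing by Pearson's r (permutation test, Benjamini-Hochberg over the 28 pairs). The genes of a library share its depth and dissection, so these values describe shared variation. The share of positive or passing pairs among other genes was not computed. The counts of pairs are therefore not shown to be particular to the genes followed here. Tissue markers differed between libraries. Under vehicle the summed counts ran from 4569 to 23873 for striatum markers and from 42737 to 239441 for oligodendrocyte markers. The part of such differences in the correlations was not tested. Dusp1 with Dusp6 gave r = 0.69 and rho = 0.57 (permutation test, adjusted p = 0.00014 and 0.00091), and r = 0.65 without the 2 libraries farthest from the median. Dusp6 with Spry4 gave r = 0.68 and rho = 0.51 (permutation test, adjusted p = 0.00117 and 0.00451), and r = 0.59 without the 2 libraries farthest from the median, but r was 0.29 within the 25 libraries that stand apart and 0.86 within the other 34. Dusp1 with Dusp5 gave r = 0.61 and rho = 0.60 (permutation test, adjusted p = 0.00014 and 0.00028), and r = 0.58 without the 2 libraries farthest from the median.

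Dusp4 kept company with Dusp5 (r = 0.59 and rho = 0.55 (permutation test, adjusted p = 0.000187 and 0.000747), and r = 0.51 without the 2 libraries farthest from the median) and hardly with Dusp1, where r was 0.064. Spred1 with Spred2 gave r = 0.48 and rho = 0.50 (permutation test, adjusted p = 0.00174 and 0.00176), and r = 0.57 without the 2 libraries farthest from the median, although the pair moved in opposite directions under lithium. Dusp1 with Spred1 had r = -0.14 and rho = -0.18 (permutation test, adjusted p = 0.414 and 0.341).

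**Figure D3:**
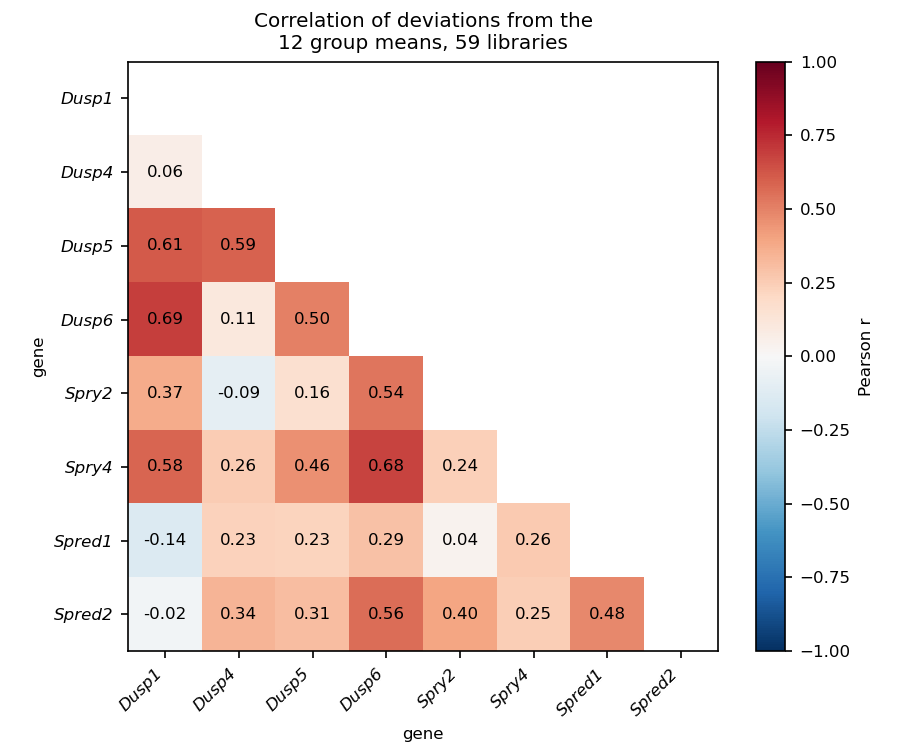
Pearson r (colour and printed value) between each pair of the 8 genes (both axes), from the deviations of 59 libraries from their 12 group means. The largest values join Dusp1 with Dusp6 (0.69) and Dusp6 with Spry4 (0.68), and Dusp1 has values near 0 with Dusp4 (0.06) and Spred2 (-0.02).

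Among 12465 other genes with a mean of at least 100, the genes most like each member were ranked by the same within-group Pearson r. Dusp1 was most like Arc (0.88), which encodes a synaptic activity-regulated protein, Trib1 (0.87) and the nuclear receptor gene Nr4a1 (0.86). Dusp6 was most like Bhlhe40 (0.85), Nab2 (0.81), which encodes a corepressor of Egr1, and Nr4a1 (0.81). For Dusp5 they were Ccn4 (0.78), Sik1 (0.74) and Arc (0.71), and for Spry4 Per1 (0.70), Trib1 (0.70) and Irf2bp2 (0.69). Spred2 was most like Ankrd33b (0.86), Irs2 (0.83) and Fam53b (0.81), and Spred1 like the synaptic scaffold gene Homer1 (0.71), Fastkd5 (0.63) and Prpf18 (0.63). Dusp4 was most like Kdm6b (0.76) and Sh3bp4 (0.71), and Spry2 like Bod1, Mfhas1 and Ap2s1 (0.71 each).

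The rest of the pathway was read from lists of named genes. Over all genes tested, 63.1% were called and 30.4% fell under lithium, and 20.0% were called and 10.3% fell under fluoxetine. Of 36 immediate early genes tested, 27 fell and 3 rose under lithium, with a median log2 change of -0.51. The falls included Sik1 (-1.08, adjusted p = 1.18e-17), Jun (-0.46, adjusted p = 2.1e-16), Per1 (-0.71, adjusted p = 1.47e-15) and Egr1 (-0.91, adjusted p = 5.14e-15). Under fluoxetine 22 fell and 3 rose, with a median of -0.29. Without the HT fluoxetine females 13 fell and 2 rose with the same median, beside 2.08% of all genes called. Sik1 (-0.60, adjusted p = 2.57e-07), Nr4a1 (-0.67, adjusted p = 5.5e-06) and Klf10 (-0.46, adjusted p = 7.7e-05) fell and Maff rose (0.45, adjusted p = 0.00015) over all fluoxetine libraries. In WT mice alone fluoxetine lowered 10 and raised 1 of the 36, beside 1.02% of all genes called.

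Targets and effectors of ERK fell under lithium for 12 of 19 genes and rose for 1, with a median of -0.17, beside 30.4% of all genes that fell. They included the transcription factor gene Srf (-0.50, adjusted p = 2.64e-19), the kinase genes Rps6ka1 (-0.48, adjusted p = 2.8e-19) and Mknk2 (-0.37, adjusted p = 6.67e-18). Growth factor receptors fell for 13 of 19 and rose for 2, led by the vascular receptors Pdgfrb (-0.52, adjusted p = 1.08e-17) and Kdr (-0.60, adjusted p = 2.41e-12), which mark mural and endothelial cells, Kit (-0.31, adjusted p = 4.37e-17) and Flt1 (-0.46, adjusted p = 2.59e-12). Adaptors and Ras exchange factors fell for 9 of 16 and rose for 1, among them Rasgrf1 (-0.35, adjusted p = 7.15e-12), which couples calcium to Ras in neurons. Ligands were even, with 5 of 24 in each direction.

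The Ras, Raf, MEK and ERK cascade itself rose for 10 of 19 genes and fell for 4 under lithium, with a median of 0.065. Rap1a (0.33, adjusted p = 2.07e-13) and the scaffold gene Lamtor3 (0.19, adjusted p = 5.12e-16) rose, and the scaffold gene Ksr2 fell (-0.36, adjusted p = 2.02e-19). Of the other 18 dual-specificity phosphatase genes 6 rose and 6 fell, including Dusp8 (-0.25, adjusted p = 1.91e-19), Dusp26 (-0.30, adjusted p = 2.34e-10) and Dusp7 (-0.23, adjusted p = 1.74e-08), which fell, and Dusp19 (0.24, adjusted p = 1.46e-09), which rose. Of the 3 other Sprouty and Spred-related genes tested, Spry1 (-0.14, adjusted p = 0.0312) and Lztr1 (-0.13, adjusted p = 0.000312) fell. Of 21 other inhibitors of the pathway 12 fell and 4 rose, among them the Ras GTPase-activating genes Rasa3 (-0.32, adjusted p = 3.83e-11) and Dab2ip (-0.29, adjusted p = 4.38e-10), which fell. Of 13 genes of the JNK, p38 and ERK5 branches 5 rose and 5 fell. Under lithium 63.1% of all genes were called and 30.4% fell, so the counts alone are not particular to these lists.

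Under fluoxetine most of these pathway calls were lost without the HT fluoxetine females. Over all genes the share called went likewise from 20.0 to 2.08%, so the losses are not particular to these lists. The comparison without those libraries also left out HT vehicle females. ERK targets fell for 7 of 19 genes with the HT fluoxetine females and 0 without. The cascade rose for 5 of 19 and fell for 1 with them and changed for 0 without, and receptors fell for 5 of 19 with them and 1 without. Mural markers fell for 5 of 9 with them and 0 without, and endothelial markers for 5 of 10 with them and 1 without. Dusp1 is also a glucocorticoid-responsive gene, so the list of other such genes was read beside it, and 10 of 20 rose with those libraries and 10 without. Fkbp5 (0.55, adjusted p = 1.42e-08), Hif3a (0.92, adjusted p = 1.42e-08), Map3k6 (0.81, adjusted p = 8.44e-09) and Zbtb16 (0.55, adjusted p = 2.35e-06) rose while Dusp1 fell. Under lithium 12 of the 20 rose and 4 fell, with Fkbp5 at 0.61, adjusted p = 1.56e-12, and Hif3a at 1.05, adjusted p = 5.98e-13.

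**Figure D4:**
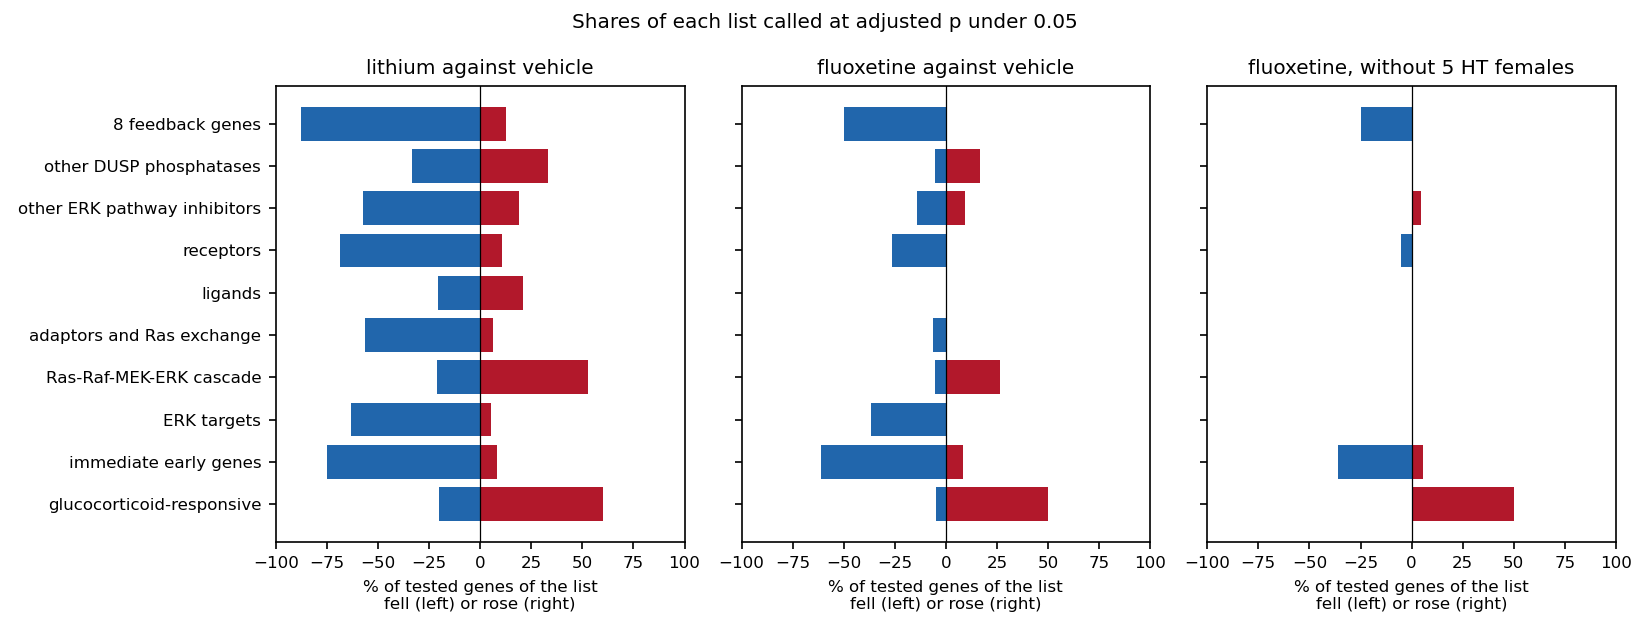
Percent of the tested genes of each list (y axis) that fell (blue, left) or rose (red, right) at an adjusted p under 0.05 (x axis) for lithium, fluoxetine, and fluoxetine without the 5 HT fluoxetine female libraries. Under lithium 27 of 36 immediate early genes and 7 of the 8 feedback genes fell, and in the right panel only feedback genes, immediate early genes and receptors show any that fell.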

How the data were processed

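Poly(A) RNA of prefrontal cortex was sequenced after a TruSeq Stranded mRNA preparation, per the labels' protocols. The authors deposited 1 table of 18088 genes by 59 libraries, a signal per gene that equals a read count divided by a size factor for each library. The tools given in the submitters' processing notes are DESeq2 1.19.11, Salmon 0.11.2 and R 3.6.0, with the build GRCm38. The annotation release and strand setting are not given in the sources used here. In every library 100% of values of up to 1000 reads came out as whole reads within 0.01 read after division by that library's step, with size factors from 0.827 to 1.129. Symbols came from GENCODE M21 for 18077 IDs, and promoters from RefSeq GRCm38.p6.

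The filter kept 17891 genes that reached 10 in 4 libraries, and these were tested on log2(value + 1) with limma 3.58.1 (trended prior, 12 group means, 47 residual degrees of freedom, two-sided, Benjamini-Hochberg over the genes tested, threshold 0.05) in R 4.3.3. The 16 main comparisons weight groups equally. The edgeR 4.0.16 and DESeq2 1.42.0 fits used the recovered reads. Other alternatives changed the prior, scaling, filter, pseudocount, samples fitted, replicate block, GC and length trend, or left out libraries. A covariate for GC slope was added after the data were seen, as were the 3 direct comparisons of HT fluoxetine females and of lithium with fluoxetine in WT mice. The fit was tested on simulated data. Permutation tests of correlations used 100000 resamples, whose smallest possible p is 1e-05. Figures were drawn with matplotlib 3.10.9.

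The 8 members, the lists and the choice of libraries to leave out were made with earlier results of these data known. Named genes are the 8 members, up to 4 of each pathway list with the smallest p among those called in a comparison, the 3 genes most like each member, and Naa15. Some genes that this rule names are not reported here.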

Additional observations from a re-analysis of the deposited data

Results flagged for a closer look

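In 9 of 96 combinations of gene and group 1 library lay far from the others by Dixon's ratio, which chance alone does for about 1 group in 20. Dusp1 was highest in HT lithium female 2, at 935 against 559 for the next library, and lowest in HT vehicle male 2, at 661 against 1081 for the next. Dusp4 was lowest in HT lithium female 3, at 116. Dusp5 was highest in WT fluoxetine female 5 (360.5), WT fluoxetine male 5 (315) and WT lithium male 1 (365). Dusp6 was highest in HT fluoxetine male 3, at 3257. Spry2 was lowest in HT vehicle male 4, at 1046. Spry4 was highest in WT fluoxetine female 5, at 516, the library in which Dusp5 was also high.

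In the main fit the interaction of genotype and fluoxetine passed for Dusp1, at 0.57 on the log2 scale. That of sex and fluoxetine passed for Spred1, at 0.26. Both calls were lost in other fits, as given above.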

How the results depend on the processing

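Of 7170 values of single genes under the alternatives, 7114 kept their direction, and the reversed values include 4 that had been called, all under the GC slope covariate: Spry2 in HT against WT under fluoxetine, Spred1 under lithium over both genotypes, Spred2 under lithium in WT mice and Spry2 in lithium against fluoxetine. The falls of Dusp1, Dusp5, Dusp6, Spry2, Spry4 and Spred2 under lithium over both genotypes passed in each other alternative.

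The number of the 8 genes called in the interaction of genotype and fluoxetine was 0 instead of 1 with limma without trend, with a robust prior, with only the groups of the comparison, with the GC and length trend removed, with the GC slope as covariate, by edgeR, by DESeq2 and without the HT fluoxetine females. In the interaction of sex and fluoxetine it was 0 instead of 1 with limma without trend, median centring, the GC and length trend removed, the GC slope as covariate, edgeR and without the HT fluoxetine females. For HT against WT under lithium it was 0 with quantile normalisation and with only the groups of the comparison, and for fluoxetine in WT mice it was 3 with only those groups.

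Without the HT fluoxetine females it was 0 for HT against WT under fluoxetine, 2 for fluoxetine over both genotypes and 0 for fluoxetine in HT mice. These comparisons were then narrowed to fewer groups, as given above. HT against WT under fluoxetine reversed for Spred1 (-0.0726), HT against WT over all treatments for Dusp1 (-0.0153) and Dusp4 (0.0278), fluoxetine in HT mice for Spred2 (0.056), and the interaction of genotype and fluoxetine for Spry4 (0.0719) and Spred2 (0.224).

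With the GC and length trend removed, 3 genes were called for HT against WT over all treatments, beside 10.3% of all genes. Reversals were Spred1 for HT against WT under fluoxetine (-0.051), in the interaction of genotype and fluoxetine (-0.0308), for lithium in HT mice (-0.0929) and for lithium against fluoxetine (-0.0565), Spred2 for fluoxetine in HT mice (0.0337) and Dusp1 for lithium against fluoxetine (0.0345).

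With the GC slope as covariate, an alternative chosen after seeing the data, 0 genes were called for HT against WT under fluoxetine, 2 over all treatments, 1 for fluoxetine in HT mice, 1 for lithium over both genotypes, 2 for lithium in WT, 1 for lithium in HT and 1 for lithium against fluoxetine, beside 18.4, 12.6, 20.4, 37.3, 38.3, 27.6 and 30.5% of all genes. HT against WT under fluoxetine reversed for Spry2 (0.0164), Spred1 (-0.0855) and Spred2 (0.0227), and fluoxetine in HT mice for Spred2 (0.14). The interaction of genotype and fluoxetine reversed for Spry2 (0.0153), Spred1 (-0.0652) and Spred2 (0.0925). Lithium reversed for Spred1 over both genotypes (-0.0458) and in HT mice (-0.15) and for Spred2 in WT mice (0.0455), and lithium against fluoxetine for Dusp1 (0.0407), Spry2 (0.00982) and Spred1 (-0.101). The cause was not tested in any of these.

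Other reversals were Dusp4 (-0.00472, quantile normalisation) and Dusp5 (0.00293, DESeq2) for HT against WT under lithium, and Spred2 for fluoxetine in HT mice with quantile normalisation (0.010) and median centring (0.0041). With the replicate block, 3 genes were called for HT against WT over all treatments and Spred2 for fluoxetine in HT mice was 3.86e-05. Same-numbered libraries had a mean residual correlation of 0.0104 (-0.316 to 0.36), and 18 of 59 correlated best with their own number, so the numbers were not taken as pairs and the block changed no other count beyond 1.5 times.

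Leaving out each library in turn, the number called ran from 1 to 3 for HT against WT over all treatments, 1 to 3 under fluoxetine, 0 to 1 under lithium, 0 to 1 in the interactions of fluoxetine with genotype and with sex, and 3 to 6 for lithium against fluoxetine. Values that reversed ran from -0.0081 to 0.055 for Dusp1 and -0.047 to 0.0067 for Dusp4 in HT against WT over all treatments, -0.076 to 0.012 for Dusp1 in lithium against fluoxetine, -0.069 to 0.0802 for Dusp4 and -0.16 to 0.058 for Dusp5 in HT against WT under lithium, -0.087 to 0.0095 for Spred2 in HT against WT under vehicle, and -0.048 to 0.048 for Spred2 under fluoxetine in HT mice. The call of Spred1 under fluoxetine in HT mice was lost without HT fluoxetine females 1 or 2, HT fluoxetine male 1, HT vehicle females 3 or 4 or HT vehicle males 3 or 4 (adjusted p from 0.052 to 0.1). Spred2 under lithium in WT mice was lost without WT lithium females 3, 4 or 5, WT lithium males 3 or 5, WT vehicle female 3 or WT vehicle males 1 or 3, and Dusp1 in HT against WT under fluoxetine was lost in 9 of the 59 fits.

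Depth was similar across libraries, and the SE of a lithium change, from 0.037 for Spred1 to 0.13 for Dusp5, bounds the differences that could be shown.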
